A study of Mus musculus with 24 samples.

Results

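GABAergic interneurons of the hippocampus fall into classes that are told apart by the genes they express, and 10 such marker genes were followed here: Pvalb, Sst, Vip, Cck, Npy, Calb2, Reln, Ndnf, Nos1 and Lamp5. Every probe of these genes on the array was taken, which gave 11 probes of 39429 distinct probes (19751 gene symbols in all). Pvalb had 2 probes, A_55_P2059040 (probe 1) and A_55_P2114437 (probe 2), and the other 9 genes had 1 probe each. All 11 probes were well above background on all 24 arrays, and none was saturated.

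RNA of the hippocampus was hybridized to single-color Agilent arrays in 4 groups of 6 arrays, with each array holding a pool of 4 mice that the labels give as 4 weeks old and the study's methods describe as adult. CD F1 and MD F1 mice were C57BL/6J x 129S6/SvEv hybrids, which the paper calls isogenic. Their fathers had eaten a control diet (CD) or a methyl donor-rich diet (MD) for 6 weeks before mating. The MD was the control chow with added L-methionine, choline, betaine, folic acid, vitamin B12 and zinc. CD F2 and MD F2 mice were mixed C57BL/6J x 129S6/SvEv hybrids from sons of CD or MD fathers mated with daughters of CD fathers, so that the grandfather's diet differed between them. All offspring themselves ate the control diet. The F2 labels also carry a code, lh or rh, whose meaning the labels do not give.

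Interneurons make up a small share of hippocampal neurons and control when and where pyramidal and granule cells fire. Parvalbumin cells target cell bodies and axon initial segments, somatostatin cells target distal dendrites, and cells with vasoactive intestinal peptide mostly contact other interneurons. Cholecystokinin marks another group of basket cells, neuropeptide Y and nitric oxide synthase mark neurogliaform and ivy cells, and reelin, Ndnf and Lamp5 are found in neurogliaform cells. Several of these genes are not confined to interneurons: Cck is also made by pyramidal cells, Calb2 by mossy cells of the dentate gyrus, and Reln by Cajal-Retzius cells. In whole tissue, fewer cells of a class and less RNA per cell cannot be told apart.

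The number of spots well above background per array lay between 33926 and 37013 in F1 and between 32809 and 34661 in F2, except for CD F2 replicate 6 (28000) and MD F2 replicate 3 (27383). These 2 arrays and MD F1 replicate 6 had lower mean correlations with the other arrays of their generation (0.977, 0.974 and 0.985) than the rest (at least 0.986 in F2 and 0.992 in F1), and results that rest on them are given with and without them. The general GABAergic genes Gad1, Gad2 and Slc32a1 and excitatory hippocampal genes (9 of 9) were well above background on all arrays. A list of 6 choroid plexus genes, from the tissue that lines the ventricle beside the hippocampus, had a mean log2 signal of 8.48 to 11.66 in CD F1, 8.64 to 12.81 in MD F1, 8.36 to 13.45 in CD F2 and 8.17 to 12.80 in MD F2.

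Of the 10 genes, 8 had an entry in the RefSeq promoter table (build GRCm38.p6), which lists the bases around transcription starts. The 250 bases before the start are printed for Sst, Npy and Cck, neuropeptide genes whose signals moved with each other or with Pvalb between arrays of a group, for Vip as the remaining neuropeptide gene, and for both starts of Pvalb, whose 2 probes differed. Capitals mark the letters TGACG on either strand (CGTCA on the other strand), the core letters of the cAMP response element, and in Vip also TATAAA, the letters of a TATA box.
Sst, chr16:23890845-23891094, minus strand: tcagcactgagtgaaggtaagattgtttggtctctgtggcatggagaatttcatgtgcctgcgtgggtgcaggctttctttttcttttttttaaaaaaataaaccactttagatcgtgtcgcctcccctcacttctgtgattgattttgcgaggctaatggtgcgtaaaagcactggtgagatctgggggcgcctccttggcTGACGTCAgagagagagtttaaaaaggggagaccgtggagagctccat
Npy, chr6:49822460-49822709, plus strand: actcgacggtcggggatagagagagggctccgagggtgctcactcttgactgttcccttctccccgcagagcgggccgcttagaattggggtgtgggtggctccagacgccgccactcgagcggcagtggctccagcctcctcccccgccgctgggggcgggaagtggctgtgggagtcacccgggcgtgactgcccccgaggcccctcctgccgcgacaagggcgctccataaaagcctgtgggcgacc
Cck, chr9:121495695-121495944, minus strand: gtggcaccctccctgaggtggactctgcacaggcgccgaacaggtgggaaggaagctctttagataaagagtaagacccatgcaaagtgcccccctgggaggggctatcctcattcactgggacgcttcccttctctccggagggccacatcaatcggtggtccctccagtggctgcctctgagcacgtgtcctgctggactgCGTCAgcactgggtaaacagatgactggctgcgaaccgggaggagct
Vip, chr10:5638968-5639217, plus strand: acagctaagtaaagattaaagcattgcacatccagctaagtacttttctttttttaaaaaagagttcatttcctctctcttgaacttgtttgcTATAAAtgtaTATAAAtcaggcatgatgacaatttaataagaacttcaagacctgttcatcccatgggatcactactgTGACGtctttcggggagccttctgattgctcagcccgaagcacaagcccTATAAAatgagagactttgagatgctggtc
Pvalb first start, chr15:78206401-78206650, minus strand: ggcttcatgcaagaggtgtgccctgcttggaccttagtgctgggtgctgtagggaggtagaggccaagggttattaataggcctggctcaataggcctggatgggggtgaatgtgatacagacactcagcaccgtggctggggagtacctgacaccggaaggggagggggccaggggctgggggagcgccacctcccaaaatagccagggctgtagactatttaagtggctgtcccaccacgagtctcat
Pvalb second start, chr15:78204238-78204487, minus strand: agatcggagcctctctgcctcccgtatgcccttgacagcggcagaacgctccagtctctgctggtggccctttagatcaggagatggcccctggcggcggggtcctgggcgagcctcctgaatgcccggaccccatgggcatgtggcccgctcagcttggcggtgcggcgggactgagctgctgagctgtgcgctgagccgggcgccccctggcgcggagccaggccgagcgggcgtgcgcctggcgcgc
Sst held the complete palindrome TGACGTCA, which begins 48 bases before the start and contains TGACG on each strand. Cck held TGACG once, on the strand opposite to the printed one, and Vip held it once on the printed strand. Vip also held TATAAA 3 times. Nos1, not printed, held TGACG once. Npy, both Pvalb starts, Reln and both Lamp5 starts held none of these letters. Of all 32851 stretches of this length in the table, 17.8% held TGACG on either strand, 1.55% held TGACGTCA and 12.4% held TATAAA on either strand. A match describes the letters only.

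The first comparison asked whether the father's diet changed the marker genes in F1. No marker probe passed an FDR of 0.1 in limma (0 of 11, beside 0.033% of all probes). At an unadjusted p under 0.05, 1 marker probe of 11 passed, beside 14.4% of all probes (6.96% higher and 7.48% lower), and all 11 overlapped between the diets, beside 1.79% of all probes that did not. The log2 fold changes (MD F1 over CD F1) lay between -0.43 and 0.11. Without scaling between arrays, which moved the median of all probes to -0.28, Calb2 (-0.47), Reln (-0.60), Ndnf (-0.56) and Nos1 (-0.76) passed the FDR. Over the 11 probes the median was -0.14, beside 0.01 over all probes. That median was 0.00 with 75th percentile scaling (beside -0.03), -0.07 with normexp background correction (beside 0.00) and -0.26 without scaling (beside -0.28), so that it was not below that of all probes in the settings with 75th percentile scaling or no scaling. Over the brightest probe of each of the 10 genes, 8 log2 fold changes were negative before rounding, beside 48.5% of all probes, and that of Sst among them rounds to 0.00.

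**Figure D1:**
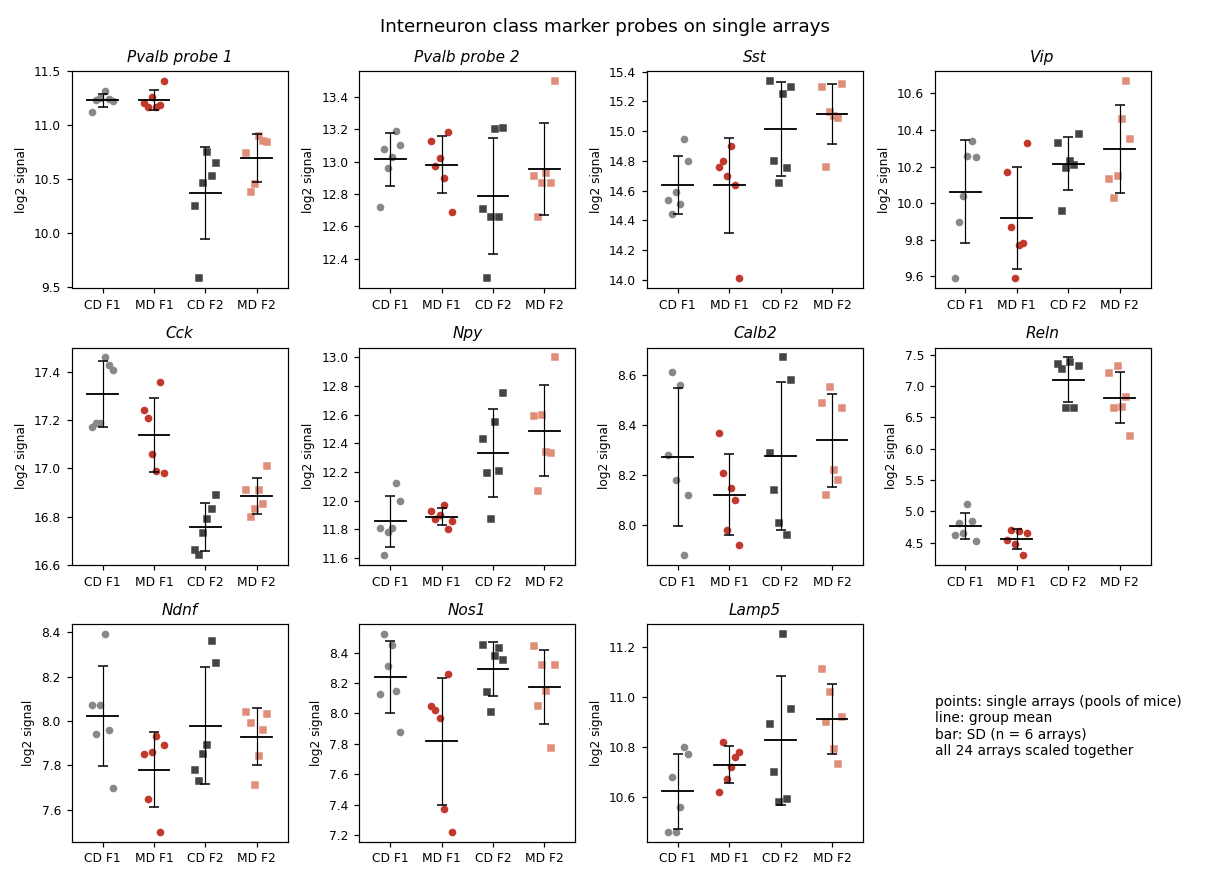
Log2 signal (vertical axes) of the 11 marker probes on each of 24 arrays, scaled together, by diet group and generation (horizontal axes); each point is an array, lines are group means and bars are SD (n = 6 arrays). The groups of each generation overlap for all 11 probes, while Reln is higher and Pvalb probe 1 is lower in every F2 array than in every F1 array.

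Among the calcium-binding proteins, probe 1 of Pvalb had the narrowest interval of the 11 probes in F1, with 0 near its middle. It had log2 signals of 11.30, 11.41 and 11.49 (lowest, median and highest) in CD F1 and 11.35, 11.37 and 11.60 in MD F1. Its log2 fold change was 0.00 (SE 0.0603, 95% interval -0.13 to 0.13; limma, FDR = 0.985). Probe 2 had log2 signals of 12.98, 13.30 and 13.45 in CD F1 and 12.94, 13.25 and 13.43 in MD F1, a difference of -0.03 (SE 0.0985, 95% interval -0.25 to 0.18; limma, FDR = 0.891). Both probes thus overlapped between the diets and neither differed by more than the spread between arrays. Calb2, which encodes calretinin, had log2 signals of 8.04, 8.39 and 8.76 in CD F1 and 8.07, 8.28 and 8.53 in MD F1 (log2 fold change -0.15, SE 0.126; limma, FDR = 0.597).

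The neuropeptide genes differed little between CD F1 and MD F1. Sst had log2 signals of 14.76, 14.89 and 15.30 in CD F1 and 14.31, 15.06 and 15.24 in MD F1, with a log2 fold change of 0.00 (SE 0.152, 95% interval -0.33 to 0.33; limma, FDR = 0.997). The lowest Sst value was that of MD F1 replicate 6, 1 of the 3 arrays that stood apart, and without it the log2 fold change was 0.13 (limma, FDR = 0.576). Npy had log2 signals of 11.82, 12.02 and 12.35 in CD F1 and 12.01, 12.11 and 12.20 in MD F1 (log2 fold change 0.04, SE 0.0843; limma, FDR = 0.857). Vip had log2 signals of 9.73, 10.30 and 10.48 in CD F1 and 9.74, 9.97 and 10.48 in MD F1 (log2 fold change -0.14, SE 0.153; limma, FDR = 0.679). Cck had log2 signals of 17.53, 17.64 and 17.79 in CD F1 and 17.37, 17.51 and 17.69 in MD F1. Its log2 fold change was -0.15 (SE 0.0783, 95% interval -0.32 to 0.02; limma, FDR = 0.398), the groups overlapped, and the value depended on the scaling of this very bright probe (0.00 with arrays scaled to their 75th percentile).

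Nos1, the neuronal nitric oxide synthase, had the largest log2 fold change of the 11 probes in F1. Its log2 signals were 8.29, 8.67, 8.46, 8.61, 8.31 and 8.03 in CD F1 (replicates 1 to 6) and 8.21, 8.17, 8.12, 7.52, 8.41 and 7.38 in MD F1. MD F1 replicates 4 and 6 lay below all CD F1 arrays, and the other 4 MD F1 arrays lay within the CD F1 range. The log2 fold change was -0.43 (SE 0.183, 95% interval -0.82 to -0.03), with an FDR of 0.325 and an unadjusted p of 0.0382 in limma (two-sided exact permutation test over 924 splits, p = 0.0519). Without MD F1 replicate 6 the log2 fold change was -0.31 (unadjusted p = 0.0818 in limma). The same 2 arrays had the highest values in F1 of a sex measure, in which the log2 signal of Xist is subtracted from the mean of Uty, Kdm5d, Eif2s3y and Ddx3y, which are Y-linked (-0.82 and 0.11, against -2.32 to -1.34 on the other 10 arrays). With that measure as a covariate the Nos1 log2 fold change was -0.10 (unadjusted p = 0.479 in limma). The measure itself went partly with the diet, at -2.32 to -1.93 in CD F1 and -2.19 to 0.11 in MD F1. The covariate can therefore take up part of a diet difference. MD F1 replicates 4 and 6 read 9.83 and 8.89 for Xist and 10.33 and 9.79 for Ddx3y. The part of sex in the Nos1 values was not tested.

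Genes of neurogliaform and related cells did not pass the test in F1 either. Ndnf, a secreted factor, had log2 signals of 7.86, 8.17 and 8.55 in CD F1 and 7.66, 8.01 and 8.08 in MD F1 (log2 fold change -0.24, SE 0.113, 95% interval -0.49 to 0.00; limma, FDR = 0.348). Reln, the extracellular protein reelin, had a dim probe and read 4.80, 4.98 and 5.36 in CD F1 and 4.58, 4.86 and 4.96 in MD F1 (log2 fold change -0.19, SE 0.101; limma, FDR = 0.400). With arrays scaled to their 75th percentile it was -0.34 (limma, FDR = 0.211). Over all 12 alternative settings that kept every array, the Reln value lay between -0.60 and -0.02. Lamp5, a relative of the lysosomal membrane proteins, had log2 signals of 10.61, 10.78 and 10.96 in CD F1 and 10.77, 10.90 and 10.99 in MD F1 (log2 fold change 0.11, SE 0.0769; limma, FDR = 0.516). The groups overlapped for each of these genes.

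Mean levels of some lists for other cells and tissues did not overlap between CD F1 and MD F1. The mean log2 signal of 6 thalamus genes was 8.60 to 8.69 in CD F1 and 8.15 to 8.56 in MD F1, with no overlap, and 5 of the 6 had negative log2 fold changes. That of 6 astrocyte genes was 12.73 to 12.85 in CD F1 and 12.26 to 12.68 in MD F1, again with no overlap. Of these, 6 of 6 were negative, beside 48.5% of all probes. Of single probes 1.79% did not overlap, a share that cannot be set beside means over several genes. No single gene of the thalamus or astrocyte list passed an FDR of 0.1. Lists for excitatory neurons, oligodendrocytes, microglia, choroid plexus, striatum and Cajal-Retzius cells overlapped between the diets. These levels come from quantile normalization within F1 only. Over the 24 arrays, deviations from the group means of the thalamus list and of a marker had a Pearson r of 0.62 for Sst, 0.60 for Calb2, 0.52 for Lamp5, 0.47 for Reln, 0.43 for Nos1, 0.36 for Pvalb probe 2 and 0.35 for Npy. It was 0.04 for Cck, -0.10 for Pvalb probe 1, -0.23 for Vip and -0.33 for Ndnf. These values describe arrays that share slides and dissections. The part of these cells in the marker values was not tested.

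The second comparison asked the same of the grandfather's diet in F2. Again no marker probe passed an FDR of 0.1 (0 of 11, beside 0% of all probes), and none had an unadjusted p under 0.05 in limma (beside 5.60% of all probes, 3.22% higher and 2.38% lower). All 11 probes overlapped, beside 0.365% of all probes that did not. The log2 fold changes (MD F2 over CD F2) lay between -0.30 and 0.32. Over the brightest probes of the 10 genes the median was 0.08, beside 0.01 over all probes, and 3 of the 10 were negative, beside 45.7% of all probes.

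**Figure D2:**
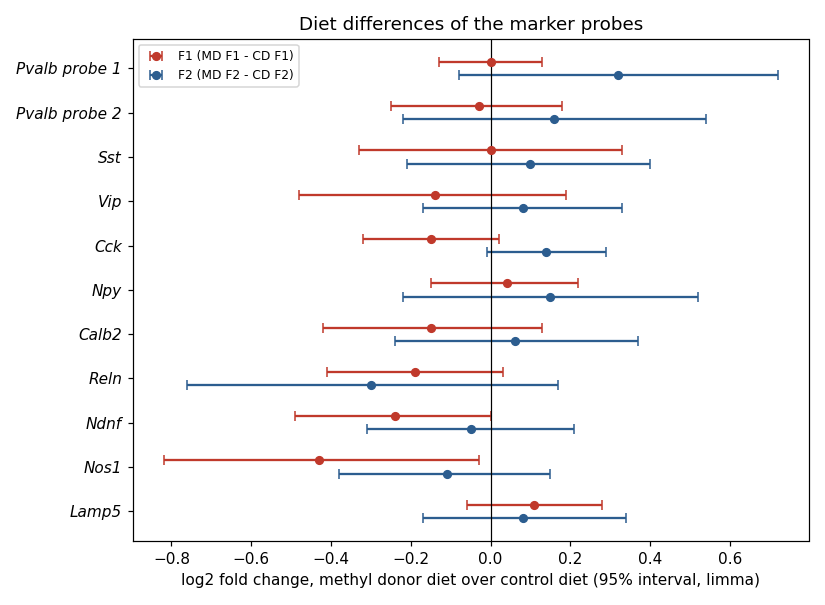
Log2 fold change of methyl donor diet over control diet (horizontal axis) for the 11 marker probes (vertical axis) in F1 and F2; points are limma estimates from 6 against 6 arrays and bars are 95% intervals. The interval of Nos1 in F1, -0.82 to -0.03, lies below 0, that of Ndnf in F1 ends at 0.00, and the others include 0.

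In F2, both Pvalb probes had positive differences that lay within the spread between arrays. Probe 1 had log2 signals of 9.44, 10.35 and 10.59 in CD F2 and 10.23, 10.62 and 10.73 in MD F2 (log2 fold change 0.32, SE 0.183, 95% interval -0.08 to 0.72; limma, FDR = 0.912). The lowest value belonged to CD F2 replicate 2, and without that array the log2 fold change was 0.16. Probe 2 had log2 signals of 12.05, 12.43 and 12.95 in CD F2 and 12.40, 12.64 and 13.22 in MD F2 (log2 fold change 0.16, SE 0.174; limma, FDR = 0.941). The choroid plexus list was lower in MD F2 (median over arrays 9.09) than in CD F2 (median 13.04), 6 of its 6 genes had negative log2 fold changes and none passed an FDR of 0.1. With the level of that list as a covariate, an alternative chosen after the data were seen, the log2 fold changes of Pvalb in F2 were 0.10 for probe 1 and -0.08 for probe 2.

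Cck was the marker with the smallest p in F2. Its log2 signals were 16.24, 16.22, 16.32, 16.39, 16.43 and 16.49 in CD F2 (replicates 1 to 6) and 16.51, 16.39, 16.43, 16.52, 16.46 and 16.63 in MD F2. The values overlapped, with 3 MD F2 arrays above the highest CD F2 array. The log2 fold change was 0.14 (SE 0.0695, 95% interval -0.01 to 0.29), with an FDR of 0.902 and an unadjusted p of 0.0666 in limma (two-sided exact permutation test over 924 splits, p = 0.0325, not adjusted for the 11 probes). In the authors' own table of processed values it was 0.13.

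The other neuropeptide genes were close between CD F2 and MD F2. Sst had log2 signals of 14.32, 14.67 and 14.96 in CD F2 and 14.42, 14.75 and 14.94 in MD F2 (log2 fold change 0.10, SE 0.138; limma, FDR = 0.964). Npy had log2 signals of 11.65, 12.09 and 12.50 in CD F2 and 11.84, 12.22 and 12.75 in MD F2 (log2 fold change 0.15, SE 0.169; limma, FDR = 0.949). Vip had log2 signals of 9.81, 10.07 and 10.24 in CD F2 and 9.88, 10.10 and 10.51 in MD F2 (log2 fold change 0.08, SE 0.115; limma, FDR = 0.968). With the choroid plexus level as a covariate these differences were -0.06 for Sst, -0.05 for Npy and -0.04 for Vip.

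Of the remaining genes, Calb2 had log2 signals of 7.81, 8.05 and 8.53 in CD F2 and 7.97, 8.19 and 8.40 in MD F2 (log2 fold change 0.06, SE 0.141; limma, FDR = 0.987). Lamp5 had log2 signals of 10.42, 10.63 and 11.06 in CD F2 and 10.57, 10.74 and 10.93 in MD F2 (log2 fold change 0.08, SE 0.115; limma, FDR = 0.960). Ndnf had log2 signals of 7.58, 7.72 and 8.21 in CD F2 and 7.56, 7.82 and 7.89 in MD F2 (log2 fold change -0.05, SE 0.120; limma, FDR = 0.990). The groups overlapped for all 3 genes. Nos1 had log2 signals of 7.86, 8.20 and 8.30 in CD F2 and 7.62, 8.09 and 8.29 in MD F2 (log2 fold change -0.11, SE 0.122, 95% interval -0.38 to 0.15; limma, FDR = 0.940).

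Reln varied more between F2 arrays than the other markers did. Its log2 signals were 7.19, 7.11, 6.48, 7.23, 6.48 and 7.17 in CD F2 (replicates 1 to 6) and 7.05, 6.48, 7.16, 6.50, 6.65 and 6.02 in MD F2, with a log2 fold change of -0.30 (SE 0.213, 95% interval -0.76 to 0.17; limma, FDR = 0.922). On 3 F2 arrays (CD F2 replicates 3 and 5 and MD F2 replicate 6) the sex measure lay between -7.69 and -7.43, and on the other 9 it lay between 5.14 and 7.62, whereas in F1 it lay between -2.32 and 0.11. Reln read 6.48, 6.48 and 6.02 on those 3 arrays and 6.48 to 7.23 on the other 9. The mean log2 signal of 6 oligodendrocyte genes also moved with Reln in F2, an observation made after the values were seen. It was 14.69 to 14.93 on the 6 arrays where Reln read 7.05 to 7.23 and 14.26 to 14.47 on the 6 where Reln read 6.02 to 6.65, among them MD F2 replicates 2, 4 and 5, which the sex measure does not set apart. The part of these cells and of sex in the Reln values was not tested beyond the covariate fit. After adding the sex measure to the model, the Reln log2 fold change in F2 was -0.42 (unadjusted p = 0.0107, FDR = 0.659 in limma). That was the lowest value over 14 alternative settings, and the highest was -0.14.

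**Figure D3:**
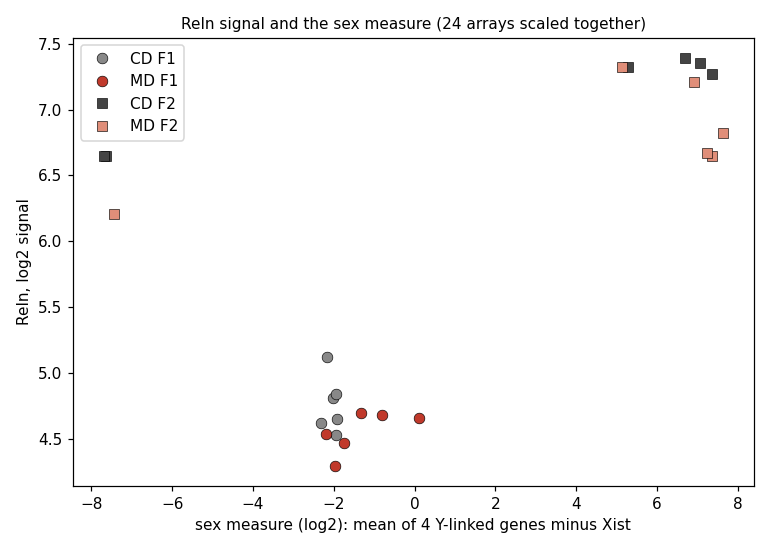
Reln log2 signal (vertical axis) against the sex measure (horizontal axis, mean log2 signal of 4 Y-linked genes minus Xist) on 24 arrays scaled together; each point is an array and colors and shapes mark the 4 groups. The F1 arrays lie between -2.32 and 0.11 on the sex measure, 3 F2 arrays lie between -7.69 and -7.43 and the other 9 between 5.14 and 7.62, and every F2 array has more Reln signal than every F1 array.

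The difference between the diet effects of the 2 generations was tested across all 24 arrays. No marker probe passed an FDR of 0.1 (0 of 11, beside 0.0127% of all probes), and 1 had an unadjusted p under 0.05 (beside 8.29%). Over the brightest probes of the 10 genes, 8 differences were negative, beside 52.4% of all probes. The probe with the small p was that of Cck, with a difference between the effects (F1 minus F2) of -0.29 (SE 0.106, 95% interval -0.52 to -0.07), an unadjusted p of 0.0112 and an FDR of 0.468 in limma. With arrays scaled to their 75th percentile it was -0.18 (unadjusted p = 0.261 in limma). Differences for the other 10 probes lay between -0.32 (Pvalb probe 1, SE 0.198) and 0.09 (Reln, SE 0.240), and their 95% intervals included 0.

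Signals of the control groups of the 2 generations were then set side by side. Generation, slide and scan day cannot be told apart here, since the generations shared no slide. Genetic background goes with generation too, since the paper states that F1 mice were isogenic and F2 mice were not. The sex measure also differed, at -2.32 to -1.93 in CD F1 and -7.69 to 7.37 in CD F2. Of the 11 marker probes, 6 passed an FDR of 0.1 in CD F2 against CD F1, beside 60.2% of all probes. Of these, 4 were higher (beside 28.6% of all probes) and 2 were lower (beside 31.6%), and 3 of the 11 did not overlap between the groups, beside 39.1% of all probes. The share of markers called was thus near that of all probes.

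Reln differed most. With the 24 arrays scaled together, its log2 signals were 4.53 to 5.12 in CD F1 and 6.65 to 7.39 in CD F2 (log2 fold change 2.34, SE 0.169, 95% interval 1.99 to 2.70; limma, FDR = 1.5e-10). The probe was dim in F1, with a mean intensity of 32.4 in CD F1, and the log2 fold change was 1.03 after another background correction (normexp). MD F1 and MD F2 arrays read 4.30 to 4.70 and 6.21 to 7.32. Over the 24 arrays, deviations from the group means of a list of 5 Cajal-Retzius genes, whose cells are another source of Reln, had a Pearson r of -0.04 with those of Reln. The same r was 0.72 for the oligodendrocyte list and 0.74 for the sex-linked list. Deviations from group means leave out the difference between generations, so these values cannot bear on it. The part of these cells in that difference was not tested.

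Cck was lower in CD F2 (16.64 to 16.89) than in CD F1 (17.17 to 17.46), with a log2 fold change of -0.55 (SE 0.0752; limma, FDR = 1.65e-06). It was -0.91 with 75th percentile scaling and -1.36 without scaling, a setting that moved the median of all probes to -0.50. Npy was higher in CD F2 (11.87 to 12.75) than in CD F1 (11.62 to 12.12), with overlap (log2 fold change 0.48, SE 0.138; limma, FDR = 0.00553), and its value was -0.09 without scaling, above that median. Sst had a log2 fold change of 0.38 (SE 0.151; limma, FDR = 0.0380), but of 0.04 with 75th percentile scaling and -0.41 without scaling. Lamp5 had a log2 fold change of 0.20 (SE 0.0999; limma, FDR = 0.0913), which was -0.22 without scaling and no longer passed with normexp (0.13), the sex measure (0.15), array weights (0.18) or the 2 dim F2 arrays left out (0.18). Vip (0.16), Calb2 (0.00), Ndnf (-0.04) and Nos1 (0.05) did not pass.

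The 2 Pvalb probes gave unlike values for the generations. Probe 1 was lower in CD F2 (9.58 to 10.75) than in CD F1 (11.12 to 11.31), with a log2 fold change of -0.86 (SE 0.140, 95% interval -1.15 to -0.57; limma, FDR = 1.78e-05). Probe 2 overlapped between the groups, at 12.28 to 13.21 in CD F2 and 12.72 to 13.19 in CD F1 (log2 fold change -0.23, SE 0.146, 95% interval -0.53 to 0.08; limma, FDR = 0.202). Probe 2 did pass the threshold with 75th percentile scaling (-0.37, FDR = 0.0412 in limma), without scaling (-0.82), with array weights (-0.32) and without the 2 dim F2 arrays (-0.31). The difference probe 2 minus probe 1 within an array was 1.60 to 1.95 in CD F1 and 2.13 to 2.70 in CD F2, which did not overlap (mean change 0.63; p = 0.00216 in a two-sided exact permutation test, which cannot give a smaller value over 924 splits). The same difference did not change detectably with the diet, by -0.04 in F1 (exact permutation test, p = 0.807) and by -0.15 in F2 (p = 0.268). A within-array difference shows unequal change of the probes and not which of them followed the transcript. RefSeq lists 2 starts for Pvalb, shown above, and the array files do not say which transcript a probe reads.

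**Figure D4:**
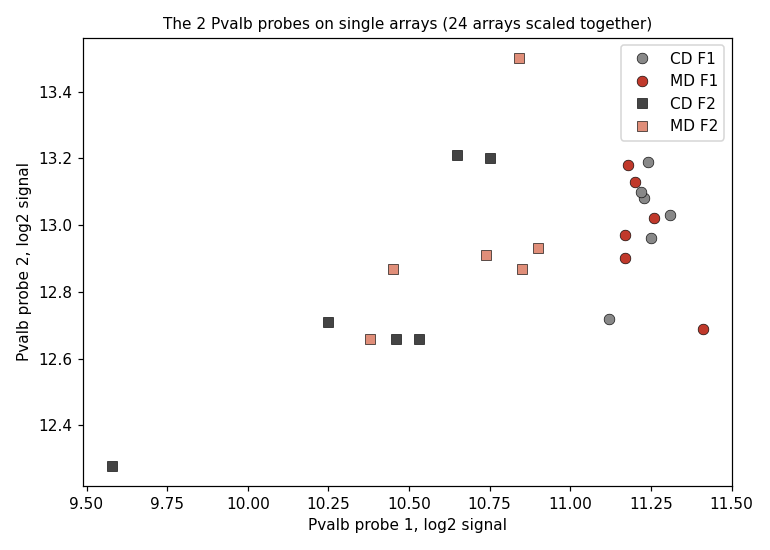
Log2 signal of Pvalb probe 2 (vertical axis) against Pvalb probe 1 (horizontal axis) on 24 arrays scaled together; each point is an array and colors and shapes mark the 4 groups. On probe 1 the F1 arrays lie within 11.12 to 11.41 and the F2 arrays within 9.58 to 10.90, while on probe 2 the generations overlap.

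How closely the 2 Pvalb probes followed each other from array to array was computed on deviations from the group means. Pearson's r was 0.75 in F2 (Spearman's rho 0.62, n = 12 arrays; r = 0.56 without the 2 arrays farthest from the median of probe 1). In F1, r was -0.19 (rho 0.05, n = 12), but without MD F1 replicate 6 it was 0.52 (rho 0.39, n = 11). That array had the highest probe 1 value and the lowest probe 2 value of MD F1. Probe 1 had little spread to compare in F1, with a residual SD of 0.0824 (percentile 5.56 among the 24099 probes well above background on all arrays), against 0.332 in F2 (percentile 82.9). Its SD was thus 4.03 times as large in F2, while the median of the same ratio over those probes was 1.17. Correlations between arrays are given as descriptions with no test, since arrays share slides, pools prepared together and the amount of neighboring tissue.

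Sst and Npy, which are made together by a subset of dendrite-targeting interneurons, followed each other in both generations. The Pearson r of their deviations was 0.61 in F1 (rho 0.77, n = 12; 0.82 without the 2 arrays farthest from the Sst median) and 0.86 in F2 (rho 0.80, n = 12; 0.74 without such 2 arrays). Without the 3 arrays that stood apart it was 0.94 in F1 (n = 11) and 0.84 in F2 (n = 10). CD F1 replicate 5, for example, had the highest value of its group for both genes (15.30 and 12.35), and MD F2 replicate 6 had the highest of its group for both (14.94 and 12.75). Deviations of the choroid plexus list had an r of -0.33 with Sst and -0.54 with Npy over 24 arrays. Its part in the relation was not tested. Sst and Calb2 had an r of 0.82 in F2 but of -0.13 in F1 (-0.71 without MD F1 replicate 6). Pairs of genes found in neurogliaform cells were not alike in the 2 generations. Reln and Ndnf had an r of 0.71 in F1 and -0.37 in F2, and Reln and Lamp5 had 0.07 and 0.64. Ndnf and Lamp5 had -0.56 and -0.10. Whether shared cells underlie any of these values was not tested.

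Pvalb probe 2 and Cck, of which Cck is also made by pyramidal cells, followed each other in both generations as well. Their r was 0.75 in F1 (rho 0.83, n = 12; 0.70 without the 2 farthest arrays) and 0.81 in F2 (rho 0.71, n = 12; 0.61 without the 2 farthest arrays). Over 24 arrays, deviations of Cck had an r of 0.33 with the excitatory list and -0.13 with the general GABAergic list. For Pvalb probe 2 these values were 0.44 and 0.17, and its r with the choroid plexus list was -0.53. Without the 3 arrays that stood apart, the first 2 values were 0.12 and -0.24 for Cck. For Pvalb probe 2 all 3 were then 0.28, 0.11 and -0.51. The part of these cells in the relation was not tested. Pvalb probe 2 followed Npy in F2 (r = 0.80) and less closely in F1 (r = 0.24), a difference that was not tested. Some pairs had opposite signs. Npy and Calb2 had an r of -0.65 in F1 (rho -0.44, and -0.09 without the 2 farthest arrays) and 0.81 in F2 (rho 0.81, and 0.86). Calb2 and Lamp5 had an r of -0.38 in F1 and 0.91 in F2 (0.93 without the 2 dim F2 arrays). Among all 55 pairs of marker probes, r was above 0.5 for 7 pairs in F1 and 22 pairs in F2, and the median r was 0.07 and 0.40. Below -0.5 lay 3 pairs in F1 and 0 in F2. Without MD F1 replicate 6, 10 pairs in F1 lay above 0.5 and 5 below -0.5, with a median r of 0.20, and without the 2 dim F2 arrays 22 pairs in F2 lay above 0.5, with a median r of 0.37. The difference between the generations was not tested.

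**Figure D5:**
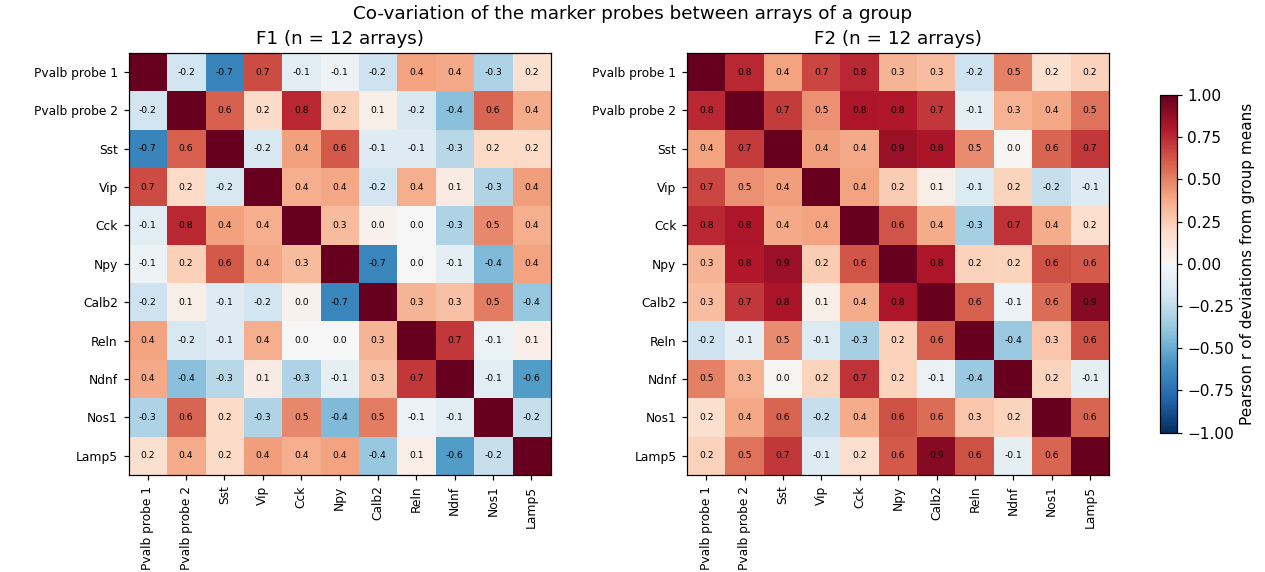
Pearson r between marker probes over the 12 arrays of F1 (left) and the 12 arrays of F2 (right), computed on deviations from the group means; red is positive, blue is negative and the number in each cell is r to 1 decimal. Of 55 pairs, 7 in F1 (10 without MD F1 replicate 6) and 22 in F2 had r above 0.5; Sst and Npy (0.61 and 0.86) and Pvalb probe 2 and Cck (0.75 and 0.81) were positive in both.

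Among 13932 other genes with a probe well above background on all arrays, those most like each marker over 24 arrays were looked up by the same measure. Each r is 1 of the 3 highest of 13932, so that its height comes in part from this choice. Without the 3 arrays that stood apart, these r lay between 0.63 (Ndnf with Wdr12) and 0.90 (Npy with Rras). Npy had Rras (r = 0.88), Pnoc (0.87), which encodes the neuropeptide precursor prepronociceptin, and Krt79 (0.85). Sst had Krt1 (0.93), BC051019 (0.89) and Caly (0.88), and Pvalb had Nagk (0.89), Fam104a (0.85) and Phb (0.85). Vip had Polb, Dnajc12 and Pcsk1, which encodes a convertase that cleaves prohormones (0.80 each), and Cck had Rbx1 (0.84), Snrpg (0.83) and Mrpl34 (0.81). Calb2 had 4930404N11Rik (0.83), Cacng7 (0.81) and Slc25a44 (0.79), and Lamp5 had Cited4, Eif2ak1 and 1700003E16Rik (0.84 each). Reln had Mapkap1, Rasl10b and Csl (0.86 each), Nos1 had Rab8a (0.84), Jmy (0.84) and Rbm15b (0.83), and Ndnf had Kbtbd2 (0.73), Gtdc1 (0.71) and Wdr12 (0.71).

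The general GABAergic genes Gad1, Gad2 and Slc32a1 showed no diet difference past the threshold. Gad1 and Gad2, the enzymes that make GABA, had log2 fold changes of -0.10 (SE 0.122) and -0.21 (SE 0.127) in F1 and 0.07 (SE 0.0709) and -0.05 (SE 0.0930) in F2, with the smallest FDR at 0.453 in limma. Slc32a1, the vesicular GABA transporter, had -0.12 (SE 0.118) in F1 and -0.15 (SE 0.0819) in F2, with FDR of 0.636 and 0.912.

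Other interneuron genes were counted by list, each gene by its brightest probe. None of 15 interneuron transcription factors, 21 further interneuron genes and 19 receptors passed an FDR of 0.1 in F1 or F2. In the list of further genes, 6 of 21 had an unadjusted p under 0.05 and a negative log2 fold change in F1 (beside 7.48% of all probes). Of the 21 genes, 17 were negative, beside 48.5% of all probes (median -0.16, beside 0.01 over all probes). The mean log2 signal of the list was 9.40 to 9.57 in CD F1 and 9.06 to 9.35 in MD F1, which did not overlap, as it did not for the thalamus and astrocyte lists. That mean and the counts include Erbb4, Syt2 and Elfn1, whose probes were well above background on only 3, 11 and 0 of 12 F1 arrays. The smallest p values belonged to Erbb4, the neuregulin receptor, whose probe was well above background on only 3 of 12 arrays and gets no fold here, and to Syt2, a calcium sensor of fast-spiking terminals (well above background on 11 of 12 arrays; log2 fold change -0.75, SE 0.154; limma, FDR = 0.166). In F2 the list had 1 such gene, Penk, a precursor of enkephalins, with a positive value (0.18, SE 0.0705; limma, FDR = 0.890).

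Of the transcription factors, Adarb2 (-0.44, SE 0.141) and Sp8 (0.19, SE 0.0672) had an unadjusted p under 0.05 in F1, and Nr2f2 (-0.26, SE 0.0988) and Sox6 (-0.27, SE 0.104) in F2. Of the receptors, Sstr3, a somatostatin receptor, had 0.25 (SE 0.0749) and Gucy1a2, a subunit of the guanylate cyclase that senses nitric oxide, had -0.33 (SE 0.121) in F1. Vipr2, a receptor for the Vip peptide, had 0.49 (SE 0.185) in F2. Their FDR values were at least 0.220 in F1 and 0.890 in F2 in limma, so that none is a call.

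Lists for other cells were counted in the same way, and no gene of them passed an FDR of 0.1. Of all probes, 14.4% in F1 and 5.60% in F2 had an unadjusted p under 0.05 in limma. In F1, genes with an unadjusted p under 0.05 numbered 1 of 5 for Cajal-Retzius cells (Trp73, 0.32), 2 of 9 for excitatory neurons (Wfs1, -0.25, and Grp, 0.21), 2 of 6 for astrocytes (Slc1a2, -0.62, and Gfap, -0.35) and 2 of 6 for oligodendrocytes (Mobp, -0.25, and Cnp, -0.26). They numbered 1 of 5 for microglia (Csf1r, -0.17), 2 of 6 for thalamus (Rora, -0.32, and Tcf7l2, -0.26), 1 of 6 for striatum (Drd1, -0.36) and 0 of 6 for choroid plexus. In F2 they were Camk2a (0.27) of 9 excitatory genes, Csf1r (-0.16) of 5 microglia genes, and Drd1 (0.31) and Ppp1r1b (-0.49) of 6 striatum genes. Of 6 thalamus genes they were Plekhg1 (0.43, well above background on 9 of 12 arrays) and Rora (-0.21). The other cell lists had none in F2. Of the sex-linked genes, Eif2s3y (0.32) and Kdm5d (0.49) had an unadjusted p under 0.05 in F1 and none had one in F2.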

How the data were processed

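The Agilent 4x44K v2 arrays were read with Feature Extraction, version 10.7.3.1 per the file headers (the study's methods give another version). The deposited per-array files hold processed signal intensity, background-subtracted on a linear scale and not scaled between arrays. The authors' table of processed values holds intensity that they quantile-normalized, and its values fit normalization within each generation. It served as an alternative for the diet effects.

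Irregular spots (1939 in F1, 2097 in F2) were left out, log2 signals were quantile-normalized within a generation (over all 24 arrays for comparisons between generations) and averaged per probe. Group means were fitted in limma 3.58.1 (R 4.3.3) over 39429 probes in F1 and 39423 otherwise, with Benjamini-Hochberg adjustment (FDR under 0.1). The fitting was checked on simulated data. Accessions of 26055 probes matched a symbol. The pools set n, so p-values measure the spread between pools.

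All marker probes are given. General GABAergic genes were named by choice (a further gene of that list is not reported here), and of other lists up to 2 genes with the smallest unadjusted p under 0.05 in each generation. For each marker, the brightest probe gave the 3 most similar genes. The markers and lists were chosen with earlier results of these data known. Alternatives covered scaling, background, dim probes, irregular spots, slide, replicate number, sex, label code, joint fitting, array weights, threshold and single arrays. Normexp (offset 50) used median spot signals, in place of the mean signals planned. The number of arrays limits the precision.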

Additional observations from a re-analysis of the deposited data

Results flagged for a closer look

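In each group of 6 arrays, the highest and the lowest value of each of the 11 marker probes were set against the nearest other value, relative to the range of the group. Of the 44 sets of 6 values, 2 held an array farther out than Dixon's critical value, and chance gives about 1 in 20.

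For Pvalb probe 2, MD F2 replicate 6 read 13.22 on the log2 scale and the next array of that group read 12.68, a gap of 0.660 of the range. This array is also 1 of the 3 F2 arrays with high Xist and low Y-linked signal, and it held the highest Sst, Npy and Cck values of MD F2. Probe 1 of Pvalb read 10.67 on it, within the range of the other MD F2 arrays.

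For Sst, MD F1 replicate 6 read 14.31 and the next array of that group read 14.97, a gap of 0.713 of the range. This array had the lowest mean correlation with the other F1 arrays (0.985). Npy read 12.07 on the same array, within the range of the other MD F1 arrays, although Sst and Npy followed each other on the remaining arrays.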

How the results depend on the processing

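No marker probe was called for the F2 diet effect or for the difference between the diet effects under any alternative. For the F1 diet effect none was called except 4 without scaling (Calb2 -0.47, Reln -0.60, Ndnf -0.56 and Nos1 -0.76), a setting that moved the median of all probes to -0.28 and called 7952 probes. Between generations 6 marker probes were called, and 5 to 7 under alternatives. Leaving out 1 array gave 0 marker calls for each diet effect and 5 to 6 between generations. Counts over all probes moved more: the 13 calls of F1 became 0 with FDR under 0.05, slide or sex terms, 4 with 75th percentile scaling, 5 with normexp, 6 without dim probes, 2 with the choroid plexus level, 73 in the fit of 24 arrays, 557 with array weights, and 0 to 152 without 1 array. The 0 calls of F2 became 18 in the fit of 24 arrays, and the 5 of the difference became 0 without scaling, 9 with normexp, 12 without dim probes or with the sex term, 511 with array weights, 47 without both dim F2 arrays and 1 with the choroid plexus level. The cause was not tested.

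Replicate numbers do not pair the arrays: same-numbered arrays correlated at -0.05 to 0.21 in F1 and -0.17 to 0.19 in F2. With a replicate block, 0 marker probes were called for each diet effect and for their difference, while calls over all probes went from 13 to 0 in F1 and from 5 to 27 for the difference.

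Small log2 fold changes changed sign. In F1 they did so without scaling (Pvalb probe 1 -0.23, Npy -0.21, Lamp5 -0.15), with the sex term (Pvalb -0.06 and 0.09, Sst 0.17), with array weights (Pvalb probe 1 -0.04, Sst 0.10), with 75th percentile scaling (Pvalb probe 2 0.01, Sst 0.07) and with normexp (Sst 0.02). In F2 they did so with the choroid plexus level (Pvalb probe 2 -0.08, Sst -0.06, Vip -0.04, Npy -0.05, Calb2 -0.10, Lamp5 -0.01), without scaling (Calb2 -0.04), with array weights (Calb2 0.00, Ndnf 0.01) and without both dim arrays (Ndnf 0.05). The difference did so without scaling (Reln and Lamp5 -0.19 each), with array weights (Sst 0.01) and with the choroid plexus level (Sst 0.03, Npy 0.07). Between generations it happened without scaling (Sst -0.41, Vip -0.24, Npy -0.09, Calb2 -0.41, Nos1 -0.37, Lamp5 -0.22), with the sex term (Calb2 -0.04, Ndnf 0.00), with array weights (Calb2 -0.03), without both dim arrays (Calb2 -0.06), with normexp (Ndnf 0.05, Nos1 -0.02) and with the choroid plexus level (Ndnf 0.01). Leaving out 1 array gave -0.03 to 0.02 (Pvalb probe 1), -0.09 to 0.02 (Pvalb probe 2), -0.06 to 0.13 (Sst) and -0.01 to 0.09 (Npy) in F1, -0.10 to 0.03 (Ndnf) in F2, -0.18 to 0.02 (Sst), -0.03 to 0.19 (Reln) and -0.07 to 0.07 (Lamp5) for the difference, and -0.08 to 0.07 (Calb2), -0.12 to 0.03 (Ndnf) and -0.02 to 0.11 (Nos1) between generations.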
